A study of Mus musculus with 2 samples.

Results

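The 10 genes described here choose the secretory fate in the gut epithelium, or carry the Notch signal that opposes it, and their counts were compared between wild-type colon and the colon of an Alzheimer's disease mouse model. They were taken by symbol from the gene rows of both count matrices: the ligand genes Dll1 and Dll4, the receptor genes Notch1 and Notch2, the target gene Hes1, and the lineage factor genes Atoh1, Spdef, Gfi1, Neurog3 and Pou2f3, 10 of the 33083 genes listed. Each was summed over crypt-, goblet-, enteroendocrine-, tuft- and colonocyte-like cells of each library. The names of the 5 classes came from marker genes that include no member, and neither the members nor the other listed genes of the pathway took part in the clustering.

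The series holds 2 single-cell libraries of colon made with 10x chemistry, 1 from wild-type (WT) mice and 1 from mice carrying the APP/PS1-21 transgenes (AD). The transgenes of this strain are driven by the Thy1 promoter, which is active mainly in neurons. The labels give no age, sex or number of animals. Each genotype has 1 library, so the spread between animals is unknown, no test between genotypes was possible, and differences below are between these 2 libraries. Every interval is exact, at 95%, and reflects counting error alone. Where 2 values stand together, WT comes first and AD second. A UMI (unique molecular identifier) marks 1 captured RNA molecule, and CPM, the usual depth-scaled count, here scales the UMIs of a gene to the total of its class. That total includes mitochondrial UMIs.

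In the crypt, a cell that carries Dll1 or Dll4 on its surface activates Notch1 or Notch2 on its neighbours. Gamma-secretase then frees the receptor's inner part, which joins Rbpj in the nucleus and turns on Hes1, a repressor of Atoh1. Cells that escape this signal keep Atoh1 and enter the secretory lineages, in which Spdef and Gfi1 act in goblet cells, Neurog3 in enteroendocrine cells and Pou2f3 in tuft cells.

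Because Atoh1, Spdef, Gfi1 and Dll4 were highest in goblet-like cells among the 5 classes of both libraries (values below), the 250 bases before their RefSeq transcription start are shown, with Neurog3, which was counted at 0, for comparison. Coordinates and sequences are RefSeq's, build GRCm38.p6, read 5′ to 3′ on the gene's own strand. Capitals mark CAGCTG and a related E-box, CAGATG (the kind of site that Atoh1 and other basic helix-loop-helix factors bind), and also TGGGAA (the core bound by Rbpj), searched on both strands. For Gfi1 the first of 2 RefSeq starts is shown.

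Atoh1 (chr6:64728875-64729124, forward strand): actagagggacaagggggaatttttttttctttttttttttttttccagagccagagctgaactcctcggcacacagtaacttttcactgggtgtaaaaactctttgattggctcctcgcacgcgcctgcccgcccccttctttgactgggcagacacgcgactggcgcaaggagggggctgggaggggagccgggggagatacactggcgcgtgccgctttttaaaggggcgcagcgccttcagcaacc
Spdef (chr17:27728952-27729201, reverse strand): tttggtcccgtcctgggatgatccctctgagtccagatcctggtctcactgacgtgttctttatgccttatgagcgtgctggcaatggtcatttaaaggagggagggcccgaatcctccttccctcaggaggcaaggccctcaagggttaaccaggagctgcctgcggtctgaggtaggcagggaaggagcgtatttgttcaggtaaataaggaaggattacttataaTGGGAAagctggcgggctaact
Gfi1 (chr5:107725806-107726055, reverse strand): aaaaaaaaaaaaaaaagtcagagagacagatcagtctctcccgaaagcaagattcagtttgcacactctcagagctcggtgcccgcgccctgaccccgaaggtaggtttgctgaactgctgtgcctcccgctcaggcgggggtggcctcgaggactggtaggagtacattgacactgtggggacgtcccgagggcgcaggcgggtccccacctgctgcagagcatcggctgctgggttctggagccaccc
Dll4 (chr2:119325534-119325783, forward strand): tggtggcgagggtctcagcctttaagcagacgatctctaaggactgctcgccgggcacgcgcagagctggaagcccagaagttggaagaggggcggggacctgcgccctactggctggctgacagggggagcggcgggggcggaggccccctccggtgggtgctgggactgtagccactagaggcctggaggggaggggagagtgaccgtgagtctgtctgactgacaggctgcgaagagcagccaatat
Neurog3 (chr10:62132840-62133089, forward strand): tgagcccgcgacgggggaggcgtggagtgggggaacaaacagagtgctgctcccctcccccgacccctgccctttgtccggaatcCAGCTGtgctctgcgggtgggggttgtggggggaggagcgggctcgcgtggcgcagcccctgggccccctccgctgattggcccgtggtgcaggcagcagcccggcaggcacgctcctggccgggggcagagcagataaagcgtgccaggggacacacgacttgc

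Spdef held 1 TGGGAA, 22 bases before the start, and Neurog3 held 1 CAGCTG, 165 bases before it. The other 3 windows shown held none of the 3 motifs. Of 32851 RefSeq windows of this length, 13.0% held CAGCTG, 14.4% CAGATG and 21.6% TGGGAA. Of the 10 members, 8 had at least 1 window in the table, 10 windows in all. The second Dll1 start had a CAGCTG 132 bases before it, and the windows of Notch1, Notch2, the other Dll1 start and the other Gfi1 start had no match.

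Depth was 26898149 UMIs over 4146 barcodes for WT and 38731915 UMIs over 6675 barcodes for AD, and 7 barcode sequences occurred in both. More than 50% mitochondrial UMIs were found in 18.7% of WT and 3.72% of AD barcodes, which were left out, so 3266 and 6393 cells were kept. Among kept cells the median mitochondrial share was 32.6% and 19.8% in crypt-like, 18.9% and 9.81% in goblet-like and 40.4% and 21.0% in colonocyte-like cells. It was 13.9% and 10.3% in enteroendocrine-like and 38.9% and 34.3% in tuft-like cells. Mitochondrial UMIs are part of the total behind CPM, and what this contributed to the ratios was not tested. Crypt-like cells numbered 562 and 552, goblet-like 160 and 533, enteroendocrine-like 77 and 84, tuft-like 121 and 29, and colonocyte-like 530 and 427. The design text names the epithelium, but fibroblast-, endothelial-, B-, plasma- and other immune-like cells were also present. Of barcodes with at least 2000 UMIs, 10.3% in the WT and 18.7% in the AD library fell into groups whose counts agree within sampling noise (21.2% and 25.4% of goblet-like, 10.8% and 24.4% of crypt-like barcodes), so some may not be separate cells. Outside goblet-like cells the AD library carried more goblet marker UMIs (13 genes; 615 and 1133 CPM in crypt-like, 350 and 931 CPM in colonocyte-like cells) and more plasma cell marker UMIs (8 genes; 272 and 2728 CPM in crypt-like cells). What these contributed to low member counts was not tested.

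Most members measured had their highest CPM in the same class of both libraries. Of 9 members with at least 20 UMIs over the 5 classes in each library, 7 had the same leading class in both: Atoh1, Spdef, Dll4 and Gfi1 in goblet-like, Hes1 and Notch2 in crypt-like, and Pou2f3 in tuft-like cells. The share of all genes that keep their leading class was not computed, so this count has no background beside it. For Dll1 and Notch1 the AD leading class was tuft-like, on 4 and 2 UMIs in 29 cells. Of 50 member and class pairs, 26 had at least 20 UMIs over both libraries. Of these, AD exceeded WT by 2-fold or more in 3, fell short of it by 2-fold or more in 0, and 23 lay between. All 3 were in enteroendocrine-like cells, where 4.49% of 8191 genes measured were called higher and 6.28% lower. No member was called in the other 4 classes, where the share of genes called higher and lower was 6.26% and 4.13% in crypt-like, 3.47% and 4.88% in goblet-like, 9.58% and 12.1% in tuft-like, and 6.33% and 4.72% in colonocyte-like cells. The panels of CPM by class show the order for each member.

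**Figure D1:**
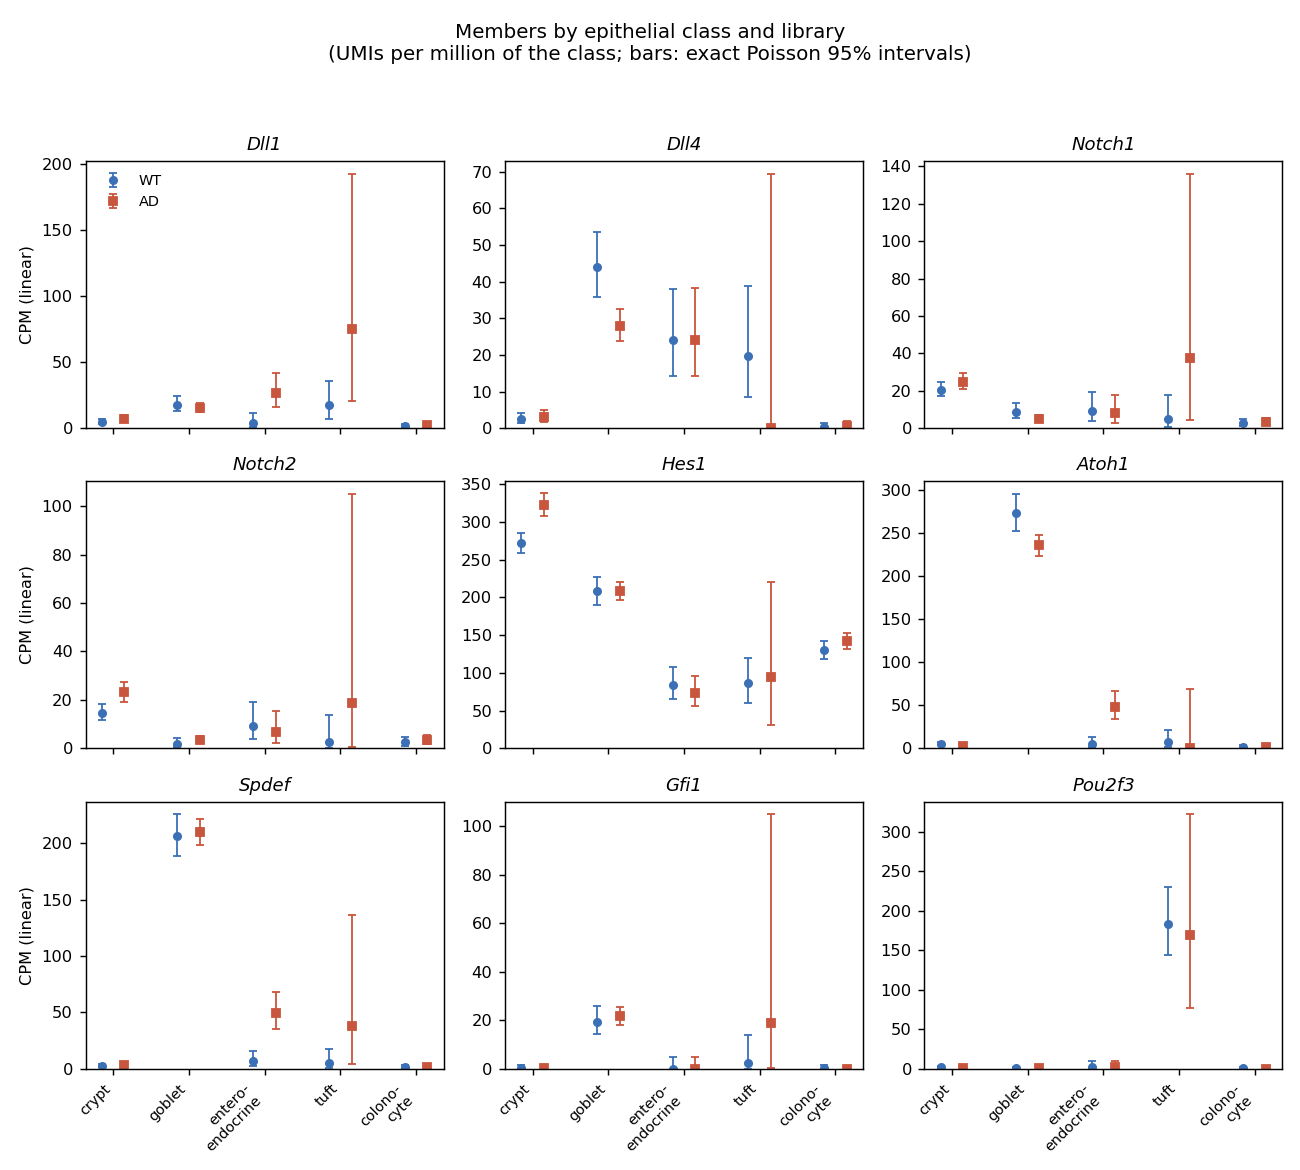
CPM (linear axis) of the 9 members with any UMI in the 5 epithelial classes, with the WT library as circles and the AD library as squares; bars are exact Poisson 95% intervals. Atoh1 and Spdef stand between 206 and 273 CPM in goblet-like cells of both libraries and under 10 CPM in crypt-like cells, and the wide AD bars in tuft-like cells come from 29 cells.

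Dll1 (ENSMUSG00000014773), a membrane ligand, had 41 and 92 UMIs in goblet-like cells, 17.7 CPM (12.7 to 24.0) and 15.3 CPM (12.3 to 18.8). The libraries overlapped, with a log2 ratio of AD over WT of -0.22 (-0.76 to 0.36). Crypt-like cells gave 4.66 and 7.06 CPM of Dll1, and colonocyte-like cells 1.28 and 2.61 CPM. Tuft-like cells had 17.3 and 75.4 CPM on 7 and 4 UMIs, and enteroendocrine-like cells 4.02 and 26.8 CPM on 3 and 20 UMIs. In the AD library both of these classes lay above goblet-like cells. Goblet-like cells stood 4.57-fold above the other 4 classes together in the WT and 2.22-fold in the AD library. Dll1 was found in 16.2% of WT and 12% of AD goblet-like cells, against 4.67% and 4.61% of fibroblast-like cells, at median depths of 8350 and 8173 against 3981 and 2810 UMIs. With every cell thinned to 1000 UMIs the goblet-like shares were 2.63% and 0.810% and the fibroblast-like ones 1.75% and 2.34%. Fibroblast-like cells had 16.6 and 18.6 CPM of Dll1, near the goblet-like level and above the 1.51 and 1.80 CPM of B-like cells, so their share is no background for this gene.

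Dll4 (ENSMUSG00000027314), the other ligand, had 102 WT and 168 AD UMIs in goblet-like cells, 44.1 CPM (35.9 to 53.5) and 27.9 CPM (23.9 to 32.5), so the AD library was lower and the intervals did not overlap. The log2 ratio was -0.66 (-1.02 to -0.29), short of 2-fold. The goblet-like class lay in 2 clusters, and the smaller, led by Zg16 and Tff3, held 27.5% of WT but 6.19% of AD goblet-like cells. Both had the same direction for Dll4, with 41.7 and 28.6 CPM in the larger and 65.7 and 12.5 CPM (15 and 3 UMIs) in the smaller. Enteroendocrine-like cells held 18 and 18 UMIs of Dll4, 24.1 CPM in each library. In colonocyte-like cells Dll4 was near absent, with 1 and 3 UMIs. Tuft-like cells had 8 UMIs of Dll4, 19.8 CPM, in the WT and 0 UMIs in the AD library. Dll4 was at least 2-fold above the other classes together in both libraries in goblet-like cells (11.5- and 7.94-fold) and in enteroendocrine-like cells (2.48- and 2.10-fold). Of all genes measured, 5.83% passed that rule in goblet-like and 15.3% in enteroendocrine-like cells, where 1 of 9 members, Dll4, did.

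Notch1 (ENSMUSG00000026923), a receptor, was mainly a crypt-like transcript, with 75.6% and 71.0% of its UMIs over the 5 classes in crypt-like cells. There it had 124 and 130 UMIs, 20.6 CPM (17.2 to 24.6) and 24.8 CPM (20.7 to 29.5), and the libraries overlapped. Goblet-like cells gave 8.64 and 4.99 CPM on 20 and 30 UMIs, with a log2 ratio of -0.80 (-1.66 to 0.10). Colonocyte-like cells gave 2.81 and 3.27 CPM.

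Notch2 (ENSMUSG00000027878), the second receptor, had 89 and 121 UMIs in crypt-like cells, 14.8 CPM (11.9 to 18.2) and 23.1 CPM (19.2 to 27.6). The AD library was higher by 0.64 on the log2 scale (0.24 to 1.05), below 2-fold. The 2 crypt-like clusters were unevenly filled. A cluster led by Zfp791, Itga9 and Zc3h7a held 84.0% of WT but 38.6% of AD crypt-like cells. The second, with Fut9, Clca3b and Cldn2 among its leading genes, held the rest. In the first, Notch2 stood at 13.7 and 15.4 CPM, and in the second at 17.3 and 25 CPM. The Notch2 ratio fell to 0.05 with no mitochondrial limit and to -0.05 with cells of at least 1000 UMIs, so its direction was not stable. Goblet-like and colonocyte-like cells held 1.73 and 3.49 CPM, and 2.55 and 3.49 CPM.

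Of the 5 classes, crypt-like cells alone passed 2-fold in both libraries for the member receptors Notch1 and Notch2. Notch1 stood 3.78- and 5.31-fold and Notch2 4.89- and 6.08-fold above the other 4 classes together. Notch4, a receptor gene that is not a member, passed 2-fold in goblet-like cells (4.56- and 4.87-fold on 20 and 45 UMIs) and in tuft-like cells. Of all genes measured, 5.32% passed that rule in crypt-like cells and 6.09% in colonocyte-like cells, where 0 of 9 members measured did.

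Hes1 (ENSMUSG00000022528), the repressor induced by Notch, was the best counted member, with 2724 and 3655 UMIs over the 5 classes. Its order was the same in both libraries: crypt-, goblet-, colonocyte-, tuft- and enteroendocrine-like. The crypt-like level was 272 CPM (259 to 286) and 322 CPM (307 to 338). Goblet-like cells stood at 208 CPM (190 to 227) and 208 CPM (197 to 220), so the class as a whole showed no difference beyond counting error. Its clusters differed: the smaller had 311 CPM (243 to 392) on 71 UMIs and 100 CPM (64.1 to 149) on 24 UMIs, a log2 ratio of -1.62 (-2.37 to -0.95), and the larger 196 and 213 CPM. Colonocyte-like cells followed at 130 CPM (119 to 142) and 142 CPM (131 to 153). A cluster led by Ifit1bl1 held 51.5% of WT but 1.17% of AD colonocyte-like cells, and its WT cells had 86.9 CPM of Hes1. In the other colonocyte-like cluster Hes1 stood at 145 and 142 CPM. Tuft-like cells, at 86.5 and 94.2 CPM, and enteroendocrine-like cells, at 84.3 CPM (64.8 to 108) and 73.8 CPM (55.6 to 96), could not be ranked between themselves. The crypt-like level was under 2-fold above the other classes together (1.85- and 1.87-fold), so Hes1 was called for no class.

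The crypt-like difference in Hes1, 0.24 on the log2 scale (0.15 to 0.34), lay close to the shift of all genes. The median gene with at least 50 UMIs was shifted by 0.18 in crypt-like and 0.22 in colonocyte-like cells, and scaling by that median left Hes1 at 0.07 in crypt-like and turned it to -0.09 in colonocyte-like cells. The crypt-like Hes1 ratio also turned to -0.07 with no mitochondrial limit, to -0.05 with called doublets kept and to -0.08 with 1000 variable genes. Within the Zfp791-led crypt-like cluster Hes1 stood at 271 and 265 CPM, and in the other at 275 and 337 CPM. Hes1 was found in 66.9% and 67.0% of crypt-like cells, and in 27.4% and 26.9% after thinning to 1000 UMIs. Fibroblast-like cells, which express the gene, had it in 24.1% and 24.3% after thinning.

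Atoh1 (ENSMUSG00000073043), the factor that starts the secretory programme, was almost confined to goblet-like cells, which held 93.1% and 96.1% of its UMIs over the 5 classes. It had 632 and 1417 UMIs there, 273 CPM (252 to 295) and 235 CPM (223 to 248). The AD library was lower by a small margin, with a log2 ratio of -0.21 (-0.35 to -0.08). In the unevenly filled smaller goblet-like cluster Atoh1 stood at 162 and 70.9 CPM on 37 and 17 UMIs, a ratio of -1.17 (-2.11 to -0.33), and in the larger at 285 and 242 CPM, a ratio of -0.24 (-0.37 to -0.09). Atoh1 was found in 61.9% and 62.1% of goblet-like cells and in 22.4% and 21.3% after thinning. In fibroblast-like cells the share was 0.778% and 0.461%, and 0 of 228 and 2 of 728 cells after thinning. In crypt-like cells, where the choice of fate is made, Atoh1 had 33 UMIs in 16 WT cells and 15 UMIs in 10 AD cells, 5.49 CPM (3.78 to 7.71) and 2.86 CPM (1.6 to 4.72). That ratio was -0.91 (-1.93 to -0.02), and it turned to 1.32 where each cell took its class from its own markers.

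Spdef (ENSMUSG00000024215), a factor of goblet cell maturation, had 478 and 1262 UMIs in goblet-like cells. The level was 206 CPM (188 to 226) and 210 CPM (198 to 222), so the libraries overlapped (log2 ratio 0.02, -0.13 to 0.18). Goblet-like cells held 93.9% and 95.2% of its UMIs, and 66.9% and 67.7% of them had at least 1. In fibroblast-like cells the share with Spdef was 1.17% and 1.27%. Crypt-like cells had 2.83 and 3.63 CPM of Spdef. In the Zfp791-led crypt-like cluster it stood at 3.36 and 11.5 CPM on 14 and 12 UMIs, a log2 ratio of 1.78 (0.53 to 3.0). In the other it stood at 1.62 and 1.67 CPM on 3 and 7 UMIs. The crypt-like Spdef ratio ran from -0.04 at a mitochondrial limit of 25% to 2.32 at resolution 2.

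Gfi1 (ENSMUSG00000029275), a repressor that holds secretory precursors away from the enteroendocrine fate, had 45 and 130 UMIs in goblet-like cells, 19.4 CPM (14.2 to 26) and 21.6 CPM (18.1 to 25.7). The libraries overlapped. In enteroendocrine-like cells Gfi1 was counted at 0 in both libraries, which allows a share of up to 3 UMIs in 747017 and 745614, or 4.02 CPM each. Crypt-like cells had 3 and 1 UMIs and colonocyte-like cells 1 and 0. Over the other 4 classes together, goblet-like cells passed 2-fold in both libraries for Atoh1 (63.7- and 43.5-fold), Spdef (72.7- and 34.6-fold), Gfi1 (45 of 50 and 130 of 132 UMIs), Dll1 and Dll4, 5 of 9 members measured, where 5.83% of all genes did.

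Goblet-like cells were split by whether Atoh1 was seen after thinning to 5000 UMIs (66 with and 39 without in the WT library, 201 and 135 in the AD library). Shallower cells, 55 WT and 197 AD, were left out. At this depth a cell that expresses Atoh1 can show 0 UMIs by sampling, so the sets without it are mixed. An even ratio between the sets therefore cannot show that a member is unrelated to Atoh1. No other member's ratio between the 2 sets had an interval that left out 1. The widest apart were Dll4 in the WT library, 57.6 CPM with and 20.5 CPM without Atoh1 (ratio 2.81, 0.933 to 11.3), and Gfi1 in the AD library, 21.9 and 8.89 CPM (ratio 2.46, 0.968 to 7.42). The other library did not share either direction, with 37.8 and 40 CPM for Dll4 in AD (ratio 0.945) and 21.2 and 41 CPM for Gfi1 in WT (ratio 0.517, 0.160 to 1.63). Spdef was near even, 218 and 241 CPM in the WT and 243 and 253 CPM in the AD library. Hes1, the repressor of Atoh1, stood at 221 CPM with and 292 CPM without it in the WT library (ratio 0.757, 0.528 to 1.09) and at 207 and 209 CPM in the AD library.

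Pou2f3 (ENSMUSG00000032015), the factor that tuft cells need to form, had 74 UMIs in 47 of 121 WT tuft-like cells and 9 UMIs in 7 of 29 AD tuft-like cells. The level was 183 CPM (144 to 230) and 170 CPM (77.6 to 322), with a log2 ratio of -0.04 whose interval (-1.29 to 0.89) reaches past a 2-fold lower level. After thinning, 19.4% (12.5 to 28.2) and 20.0% (5.73 to 43.7) of tuft-like cells had Pou2f3. Crypt-like cells had 2.00 and 1.53 CPM, under the 12.3 and 12.6 CPM of fibroblast-like cells. Tuft-like cells stood 129- and 170-fold above the other 4 classes together, where 13.6% of genes measured passed 2-fold in both libraries, as did Dll1 on 7 and 4 UMIs.

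Neurog3 (ENSMUSG00000044312), the factor that starts the enteroendocrine lineage, was counted at 0 in every barcode of both libraries. Neurod1, which follows it in that lineage, and the epithelial factor Elf3, which most gut epithelial cells express, were also at 0, as were Nrarp, Hmx2 and Hmx3, and 6992 of the 33083 listed genes. No level or fold can therefore be given for Neurog3. Whether these counts of 0 reflect absent transcripts or the reference used for counting was not tested.

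**Figure D2:**
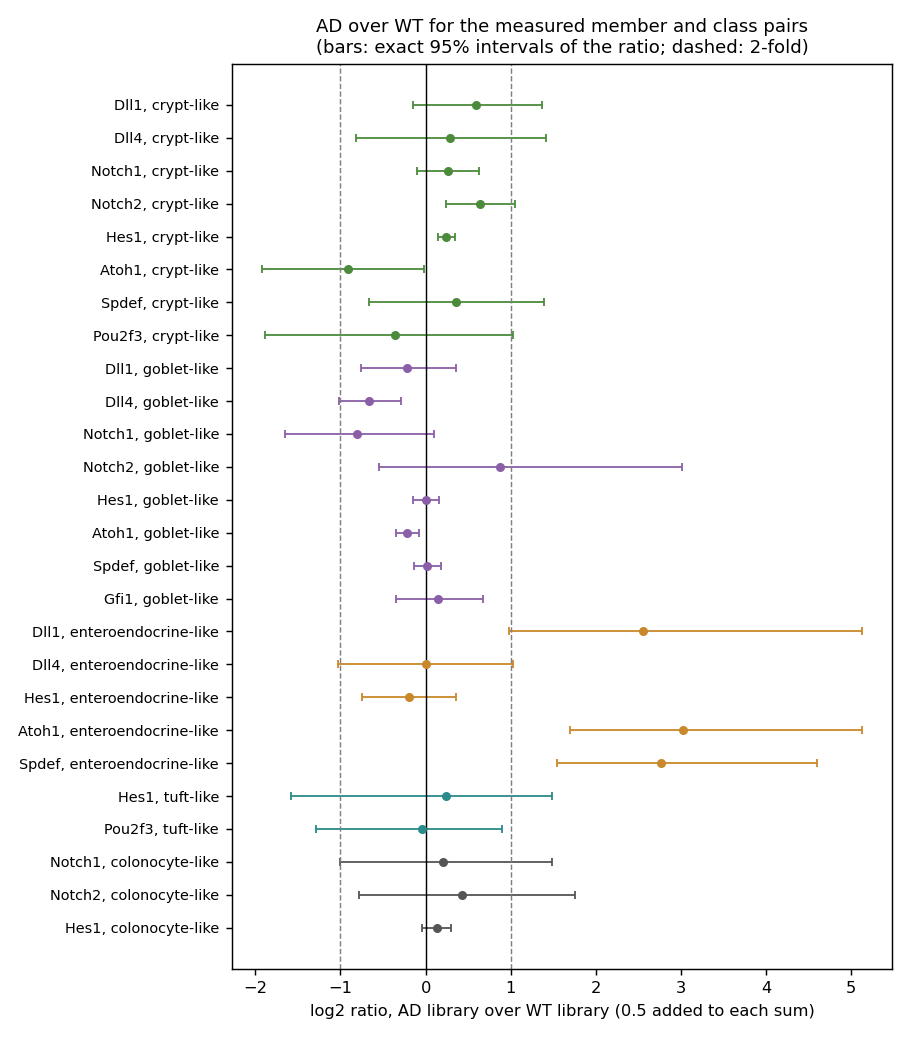
Log2 ratio of the AD over the WT library (horizontal axis, 0.5 added to each sum) for the 26 member and class pairs with at least 20 UMIs; bars are exact 95% intervals of the ratio, dashed lines mark 2-fold, colours mark the class. Atoh1, Spdef and Dll1 in enteroendocrine-like cells lie beyond 2-fold, and the other 23 pairs lie within it.

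The 3 members past 2-fold stood in enteroendocrine-like cells, the hormone-producing cells of the gut. Atoh1 had 4 UMIs in 1 of 77 WT cells and 36 UMIs in 11 of 84 AD cells, 5.35 CPM (1.46 to 13.7) and 48.3 CPM (33.8 to 66.8), a log2 ratio of 3.02 (1.69 to 5.12). Spdef had 5 and 37 UMIs, 6.69 CPM (2.17 to 15.6) and 49.6 CPM (34.9 to 68.4), a ratio of 2.77 (1.54 to 4.59). Dll1 had 3 and 20 UMIs, 4.02 CPM (0.828 to 11.7) and 26.8 CPM (16.4 to 41.4), a ratio of 2.55 (0.99 to 5.13). In each case the AD interval of CPM lay above the WT one, but these intervals count several UMIs of 1 cell as separate. Spdef was found in 3 WT and 15 AD cells and Dll1 in 2 and 11. Intervals of the shares of cells overlapped for Atoh1 (1.30% and 13.1%), Spdef (3.90% and 17.9%) and Dll1 (2.60% and 13.1%). Hes1 (84.3 and 73.8 CPM) and Dll4 (24.1 and 24.1 CPM), the other members measured there, did not differ beyond counting error. With a minimum of 50 UMIs none of the 3 was measured, and without the 5% deepest cells of each class Spdef alone still had 20 UMIs.

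For Atoh1 and Spdef these UMIs lay mostly in AD cells rich in goblet markers. Of the 36 Atoh1 UMIs, 21 lay in 2 cells, and 10 lay in 5 barcodes whose counts agree within sampling noise and that carried Insl5 and Pyy, hormone genes of the distal gut, beside Muc2, the main goblet mucin. AD cells with Atoh1 had a median of 52898 CPM of goblet markers (801 to 139063), against 905 CPM in those without. AD cells with Spdef had 28755 CPM, against 862 CPM. For Dll1 the medians were near even, 1262 CPM with and 1166 CPM without.

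Without enteroendocrine-like cells of 5000 CPM or more of goblet markers, a limit chosen after the values were seen, 75 WT and 66 AD cells remained. Atoh1 then had 4 and 1 UMIs, 5.38 and 1.95 CPM, and Spdef 5 and 3, 6.72 and 5.86 CPM, so neither was higher in the AD library. Dll1 kept 3 UMIs in 2 WT cells and 12 UMIs in 8 AD cells, 4.03 CPM (0.831 to 11.8) and 23.4 CPM (12.1 to 40.9), a log2 ratio of 2.37 (0.65 to 5.00) on 15 UMIs, below the minimum of 20. After thinning to 1000 UMIs, Dll1 was found in 0 of 68 and 2 of 75 cells.

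**Figure D3:**
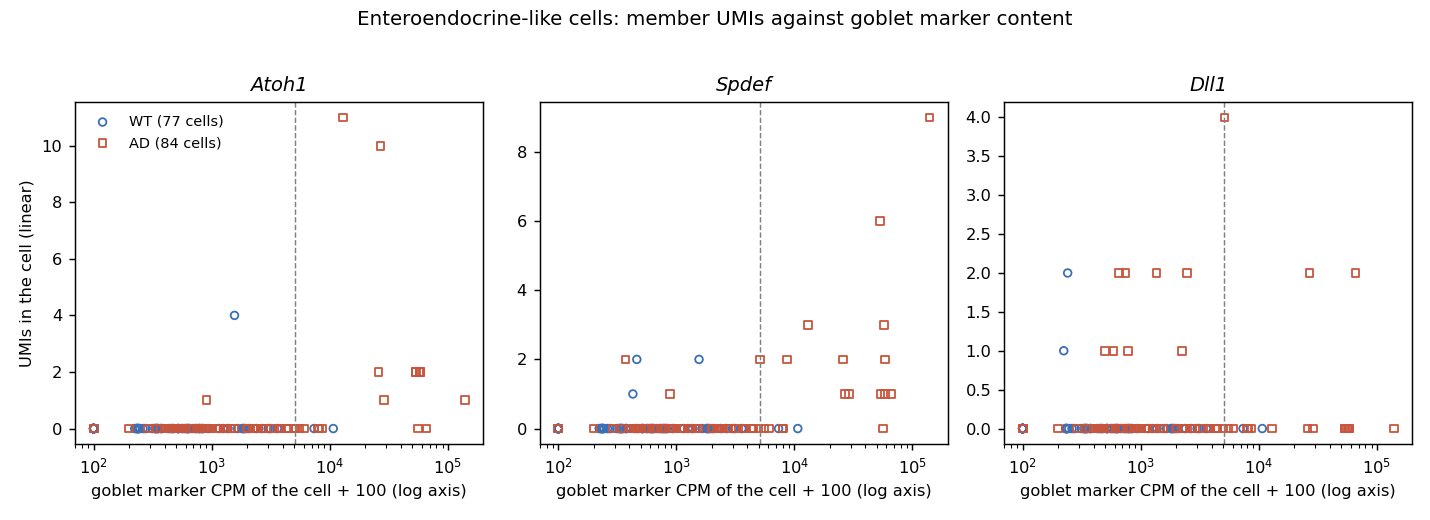
UMIs of Atoh1, Spdef and Dll1 (vertical axes, linear) in each enteroendocrine-like cell against that cell's goblet marker CPM plus 100 (log axis), WT cells as circles and AD cells as squares; the dashed line marks 5000 CPM. Cells with Atoh1 or Spdef in the AD library lie mostly to the right of the line, and cells with Dll1 mostly to its left.

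Summed over all epithelial-like cells, the mix of cell types enters the level. Of 9 members measured, 2 passed 2-fold upwards in AD (4.1% of 15693 genes measured were): Spdef, 30.2 and 61.7 CPM (log2 ratio 1.03, 0.88 to 1.18), and Gfi1, 2.97 and 6.19 CPM (1.05, 0.58 to 1.56). Of the same 9, 1 was lower, Pou2f3, 5.53 and 1.62 CPM (-1.76, -2.38 to -1.20), where 6.15% of genes were. Goblet-like cells were 160 of 2028 WT and 533 of 2070 AD epithelial-like cells and tuft-like cells 121 and 29, while within goblet-like and tuft-like cells the same 3 genes did not differ beyond counting error. At a mitochondrial limit of 25% or 10% none of the 3 was called.

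Among the ligand genes that are not members, Jag1 was counted at 26 and 23.3 CPM in crypt-like cells, and none of the 4 ligands measured there was called (median log2 ratio 0.14, beside 0.18 over all genes). Of 9 measured genes that modify ligands and receptors, none was called in crypt-like cells. Pofut1, which adds fucose to Notch receptors, came nearest with 10.8 and 21.6 CPM (log2 ratio 0.99), and Mib1, which drives ligand uptake, had 37.8 and 54.8 CPM. In goblet-like cells none of 10 was called, and Lfng, a glycosyltransferase of Notch, stood at 19.4 and 18.8 CPM.

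Of 8 measured genes for the proteases that cleave Notch receptors, 1 passed 2-fold upwards in AD crypt-like cells (6.26% of all genes did) and 0 passed it downwards (median 0.10). That gene was Aph1b, a gamma-secretase subunit, with 33 and 76 UMIs, 5.49 and 14.5 CPM (log2 ratio 1.39, 0.79 to 2.04). Psenen, another subunit, had 108 and 85.3 CPM in crypt-like cells, and none of the 8 was called in goblet-like cells (median 0.08, beside -0.04 over all genes).

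Of 8 genes of the nuclear Notch complex, 1 was at least 2-fold higher in AD crypt-like cells, where 6.26% of all genes measured were. That gene was Rbpj, the DNA-binding partner, with 85 and 152 UMIs, 14.1 and 29.0 CPM (log2 ratio 1.03, 0.64 to 1.44). The median gene with at least 50 UMIs was itself shifted by 0.18 there, and the uneven filling of the crypt-like clusters applies to Rbpj too. In goblet-like cells Rbpj had 21.6 and 30.9 CPM, below 2-fold. The coactivator Maml2, with 2 and 27 UMIs (log2 ratio 2.08, 0.38 to 5.49), was the 1 of 7 called there, where 3.47% of all genes were called higher. Of 10 target genes, 2 had 20 UMIs or more in crypt-like cells, Hes1 and Bcl6 (10.6 and 11.1 CPM), and neither was called.

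Of 11 goblet regulators, all were measured in goblet-like cells and none was called, a list that includes Atoh1, Spdef and Gfi1, with a median log2 ratio of 0.08 (beside -0.04 over all genes) and a range of -0.21 to 0.50. Klf4 had 640 and 908 CPM, Creb3l1 509 and 538 CPM and Xbp1, a factor of the secretory stress response, 327 and 388 CPM. Over the other 4 classes together, 7 of the 11 passed 2-fold in both libraries, where 5.83% of all genes did. These were Atoh1, Spdef, Gfi1, Creb3l1, Creb3l4, Xbp1 and Bhlha15. In enteroendocrine-like cells 4 of 9 were higher in the AD library, where 4.49% of all genes were (median 0.73, beside 0.00 over all genes). The 4 were Atoh1, Spdef, Creb3l4 (4.02 and 26.8 CPM) and Hes6 (34.8 and 79.1 CPM). Goblet markers moved with them, at 518 and 14281 CPM in these cells, and their part was not tested for Creb3l4 and Hes6.

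Other enteroendocrine regulators were counted, while Neurog3 and Neurod1 were at 0 in every barcode. All 12 measured over the classes passed 2-fold in enteroendocrine-like cells of both libraries, where 15.3% of genes did. Insm1, a factor downstream of Neurog3, had 309 and 449 CPM, Sox4 420 and 378 CPM, and Runx1t1 328 and 235 CPM. Between the libraries 3 of 15 were higher in AD and 1 was lower (median 0.04), where 4.49% and 6.28% of all genes were. Isl1 (46.9 and 150 CPM) and Neurod2 (12 and 26.8 CPM) were among the higher, and Lmx1a (284 and 126 CPM) was the lower. The AD library held more cells of the cluster led by Insl5, Gcg and Pyy, 19 of 84 against 9 of 77, and 5 of the 19 were the barcodes, described above, whose counts agree within sampling noise.

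Of the tuft regulators, 3 of 7 were measured in tuft-like cells and none was called. Sox9 stood at 284 and 245 CPM and Runx1 at 208 and 188 CPM. Of 10 measured stem and absorptive regulators, 2 were higher in AD crypt-like cells (6.26% of all genes were), Ascl2, a stem cell factor, with 4.33 and 14.1 CPM (26 and 74 UMIs), and Prdm1, with 1.5 and 4.01 CPM. The uneven filling of the crypt-like clusters applies to these values. In colonocyte-like cells Sox9 was higher (26.8 and 54.7 CPM) and Maf lower (26 and 7.62 CPM). A colonocyte-like cluster led by Ifit1bl1 and Aqp8 held 273 WT but 5 AD cells. Immediate early and heat shock genes, which respond to tissue handling, summed to 10184 and 14476 CPM in crypt-like, 11041 and 14159 CPM in goblet-like and 8616 and 14982 CPM in colonocyte-like cells, and what they contributed was not tested.

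Several members were as high or higher outside the epithelium. Hes1 stood at 517 and 657 CPM in endothelial-like, 768 and 717 CPM in muscle- or pericyte-like and 358 and 343 CPM in fibroblast-like cells. B-like cells had 251 CPM (166 UMIs) in the WT and 106 CPM (118 UMIs) in the AD library. Notch1 was highest in endothelial-like cells, at 98.1 and 99.1 CPM, which also had the highest Dll4, 55.7 and 74.3 CPM, and Dll1, 45.1 and 49.6 CPM, among classes with 5 or more UMIs of these genes in each library. Notch2 stood at 185 and 171 CPM in macrophage-like, 177 and 125 CPM in B-like and 95.5 and 95.4 CPM in fibroblast-like cells, all above the crypt-like 14.8 and 23.1 CPM. Gfi1 in lymphocyte-like cells, 24.6 and 20.1 CPM, was level with goblet-like cells. Endothelial Dll4 and Notch1 belong to vessel growth, and Gfi1 to blood cell development.

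**Figure D4:**
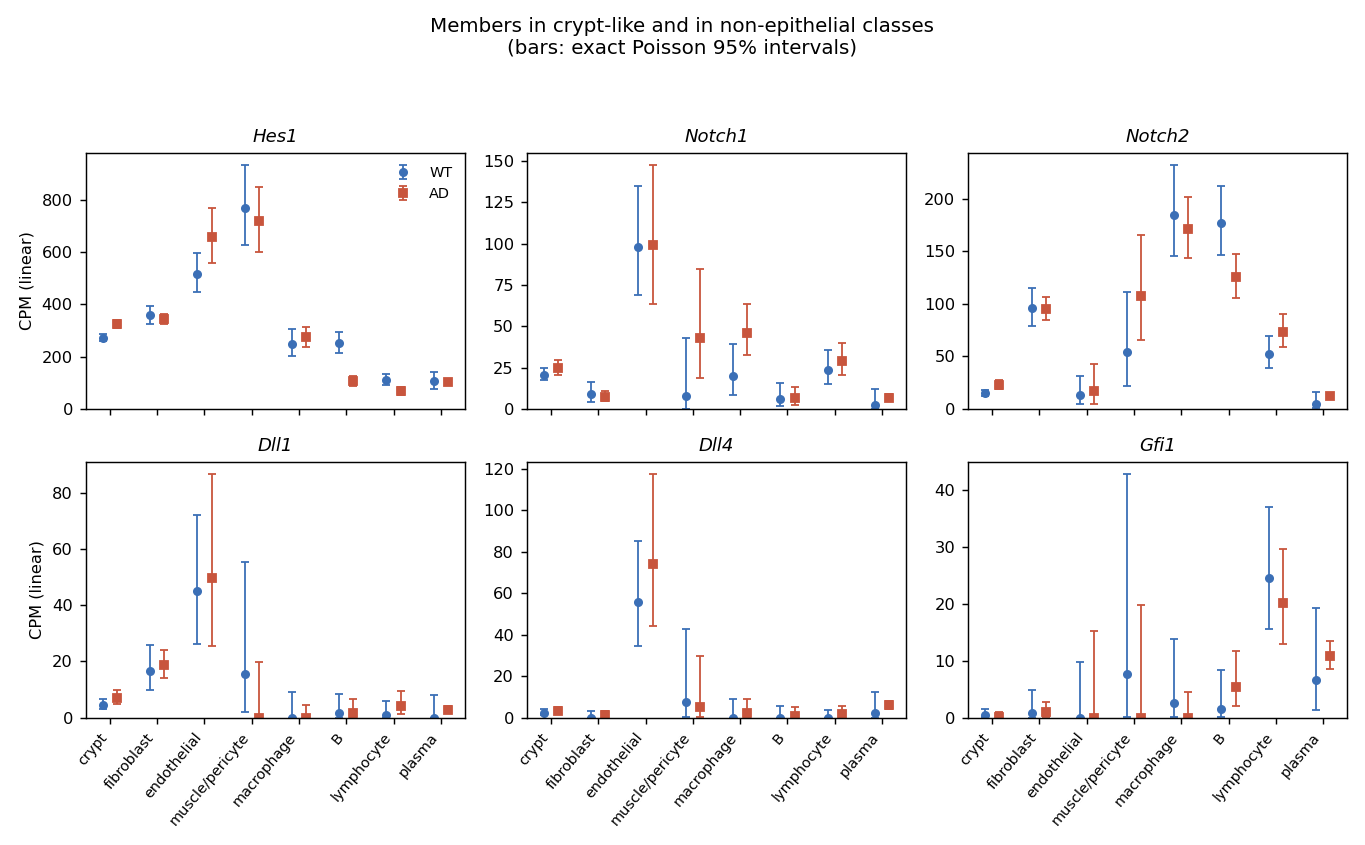
CPM (linear axes) of 6 members in crypt-like cells and 7 non-epithelial classes, WT as circles and AD as squares, with exact Poisson 95% intervals. Endothelial-like cells lead for Notch1, at 98.1 and 99.1 CPM, and macrophage- and B-like cells for Notch2.

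Over the 10 sums of class and library, the genes whose log2 levels followed each member most closely among 6456 genes were Creb3l4 (Pearson r = 0.983) and Fkbp11 (0.980) for Atoh1, Slc12a8 (0.981) and Kctd14 (0.958) for Spdef, and Synj2 (0.915) and Gfus (0.901) for Gfi1. For Hes1 they were Mrpl42 (0.960) and Tcf7l1 (0.934), for Dll1 Mta2 (0.961) and Atf6b (0.947), and for Dll4 Rabac1 (0.965) and Cxxc5 (0.965). For Notch1 they were Zan (0.958) and Ripk2 (0.941) and for Notch2 Akr7a5 (0.917) and Kcnq1 (0.906). The 10 points share 2 libraries and 5 sets of cells, so these values describe likeness of pattern and carry no test.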

How the data were processed

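Colon cells of 1 WT and 1 AD library were analysed. The authors deposited whole-number UMI counts per gene and barcode, and build mm10, Seurat 3.0.2, STAR and Cell Ranger 3.0.1 are listed, per the submitters' processing notes, without roles or settings. No normalization of these counts is given in the sources used here.

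The members, gene lists and tests were chosen with earlier results of these data known. Kept cells had 500 UMIs or more, 200 genes or more and no more than 50% mitochondrial UMIs. Scrublet (scanpy 1.11.5) called 9 WT and 2 AD barcodes as doublets, under 0.5% and therefore not effective, and these were removed. Both libraries were clustered together (Leiden, leidenalg 0.10.2, resolution 1, 2000 variable genes, 30 components, 15 neighbours) without any of the 109 listed genes. Clusters were named from 226 markers of 20 classes, of which 3 were not matched, and at least 3 markers were needed for a name. Class names are rebuilt here and may differ from the study's.

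Sums of UMIs were taken within each class of each library, and intervals (exact Poisson for CPM, exact conditional for ratios, Clopper-Pearson for shares, 95%, scipy 1.17.1) cover counting error only. A gene with at least 20 UMIs over both libraries was measured, and at 2-fold or more it was called. The log2 ratio has 0.5 added to each sum. Shares were also computed after thinning cells to 1000 UMIs, leaving out shallower ones. A count of 0 allows up to 3 counts. Barcodes of at least 2000 UMIs in the same cluster and library formed a group where chi-square per gene was at most 1.2 over at least 30 genes.

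Besides the members, the text names from each list up to 3 genes with the largest ratio, up to 3 with the highest CPM and those past 2-fold, the last and a few others chosen after their values were seen, and for each member the 2 genes most like it in log2(CPM + 1). Some listed genes are not reported here. UMIs are counted at transcript ends, so levels are not compared between genes, and counts of overlapping or antisense genes may be shared. The summed counting was tested on simulated data. Alternatives covered cell filters, clustering, class assignment, scaling, the minimum of UMIs and the fold.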

Additional observations from a re-analysis of the deposited data

Results flagged for a closer look

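Atoh1 moved in opposite directions between the libraries in different classes. Its log2 ratio of AD over WT was 3.02 in enteroendocrine-like cells, -0.91 in crypt-like cells and -0.21 in goblet-like cells, and each counting interval left out 0. These intervals count several UMIs of 1 cell as separate. The share of cells with Atoh1 was 2.85% (1.64 to 4.58) and 1.81% (0.872 to 3.31) in crypt-like cells. It was 61.9% and 62.1% in goblet-like cells, and the intervals of the shares overlapped in all 3 classes. With 1 library per genotype the difference between the classes was not tested. The enteroendocrine-like value was -1.05 (-7.08 to 1.88) without cells rich in goblet markers, and the crypt-like value was 1.32 where each cell took its class from its own markers.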

How the results depend on the processing

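Of 15 planned settings and 2 chosen after seeing the data, 14 gave new ratios of single members. Of these 444 ratios, 392 moved by less than their counting interval and 52 moved by more. A ratio was left out where fewer than 20 UMIs or too few cells remained. Dll1 in enteroendocrine-like cells was therefore measured in 9 of the settings and Pou2f3 in crypt-like cells in 4. The count of members with the same leading class stayed within 1.5 times of 7. Of the 26 pairs, 3 were called higher, and the pairs measured changed with the setting. The 3 became 1 at a mitochondrial limit of 10% (where no crypt- or tuft-like cells remained) and 0 with a minimum of 50 UMIs (fewer pairs measured). They became 6 at 1.5-fold, and 0 without enteroendocrine- and tuft-like cells of 5000 CPM or more of goblet markers. With no minimum of UMIs they became 8, and the added calls were tuft-like pairs under 20 UMIs, such as Spdef with 2 and 2. The 0 called lower became 2 at a mitochondrial limit of 25%, 1 at 10%, 1 with at least 1000 UMIs per cell, 1 with called doublets kept, 1 with classes per cell by markers, 1 when scaled by the median ratio and 3 at 1.5-fold. With no minimum they became 4, all on pairs under 20 UMIs. The share of all genes called was computed only for the reported setting, so the counts under other settings have none beside them. Atoh1 in crypt-like cells was past 2-fold lower at a mitochondrial limit of 25% (-1.16), with at least 1000 UMIs (-1.11), with doublets kept (-1.27) and with median scaling (-1.09). Over all epithelial-like cells, the 2 called higher became 0 at mitochondrial limits of 25% and 10%, without the 5% deepest cells, at resolution 0.5, with median scaling and with the deepest barcode of each group, and 1 with the listed genes kept for clustering and with classes per cell. The 1 called lower became 0 at limits of 25% and 10%. Apart from the settings whose construction is named, the cause was not tested. Over the settings the log2 ratio ran from 2.22 to 2.60 for Dll1 in enteroendocrine-like cells where it was measured, from -1.01 to -0.43 for Dll4 and from -0.64 to -0.17 for Atoh1 in goblet-like cells. Median scaling turned the sign for Notch1 in colonocyte-like cells (-0.02) and Pou2f3 in tuft-like cells (0.03). No paired analysis was possible because there was 1 library per genotype. Depth limits Pou2f3, with 9 UMIs in AD tuft-like cells, and Gfi1 and Dll1 outside goblet-like cells.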

Other observations

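Atoh1 and Spdef were also counted outside the epithelium. Atoh1 had 5 UMIs in 5 of 1143 WT and 76 UMIs in 30 of 3220 AD cells, and 4 AD cells with at least 5 UMIs held 40 of the 76. Those 4 cells carried 18400 to 61360 CPM of goblet markers, against a median of 790 CPM in AD cells without Atoh1. Spdef had 9 UMIs in 8 WT and 76 UMIs in 33 AD cells, of which 5 cells held 47. Those 5 carried 28362 to 61360 CPM of goblet markers, against a median of 790 CPM in AD cells without Spdef. What goblet transcripts contributed to these counts was not tested.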
